A study of Mus musculus with 12 samples.

Results

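The 8 genes described here load and carry peptides on class II molecules of the major histocompatibility complex (MHC), or switch that machinery on. They were taken by name from the scanner files: Ciita (listed there under its older name C2ta), H2-Aa, H2-Ab1, H2-Eb1, Cd74, H2-DMa, H2-DMb1 and Ctss. They are 8 of the 27669 genes and 12 of the 41174 probes on the array. All 12 probes gave signal well above background on all 12 arrays, so no member was lost to the filter on dim probes. The 12 arrays hold RNA of peritoneal macrophages in 4 groups of 3, made of cells without (control) and with apoA-I of 2 genotypes, C57BL/6 and MyD88-null. Donors were 10-week-old females, either C57BL/6 or MyD88-/-, the latter lacking the adaptor of most Toll-like receptors and of the interleukin-1 receptor. In every group the macrophages were elicited with thioglycollate and collected after 96 h, loaded overnight with cholesterol at 10 µg/ml, and kept in medium with polymyxin B, an agent that binds endotoxin, at 25 µg/ml, added 30 min before the treatment. The apoA-I groups then received apolipoprotein A-I, the protein that makes up most of high-density lipoprotein, at 10 µg/ml for 2 h. The control groups did not. The series' design speaks of 3 replicate experiments of 4 samples each, and nothing in the labels says whether the mice differed between them, so a p-value here reflects how much these samples varied, which may be technical.

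Class II molecules are pairs of an alpha and a beta chain that show peptides from swallowed material to CD4+ T cells. The chains assemble on the invariant chain Cd74, whose remnant is cut down by proteases such as cathepsin S (Ctss) and is then exchanged for peptide with the help of H2-DM. Transcription of the class II chains, Cd74 and H2-DM depends on Ciita, a co-activator that does not bind DNA itself. It docks on factors (RFX, CREB and NF-Y) sitting on the X and Y boxes just upstream of class II genes. In macrophages Ciita is best known as a target of interferon-gamma, with Irf1 among the factors at its promoter.

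The promoter sequences below are shown because those of the 3 class II genes hold letters of the boxes through which Ciita is known to reach its targets, and that of Ctss holds an interferon pattern. The RefSeq table (build GRCm38.p6) held promoter windows for 5 of the 8 members. The 250 bases before the start are printed 5′ to 3′ on the gene's own strand for H2-Aa (chr17:34287824-34288073, minus strand), H2-Eb1 (chr17:34305617-34305866, plus strand), H2-DMb1 (chr17:34152941-34153190, plus strand) and Ctss (chr3:95526536-95526785, plus strand). In the first 3, capitals mark the letters TGACGTCA or TGATGATG, forms of the X2 element in the X box, and GATTGG, the core of the Y box. In Ctss they mark the pattern of an interferon-response element, GAAA, then any 2 bases, then GAAA.
H2-Aa: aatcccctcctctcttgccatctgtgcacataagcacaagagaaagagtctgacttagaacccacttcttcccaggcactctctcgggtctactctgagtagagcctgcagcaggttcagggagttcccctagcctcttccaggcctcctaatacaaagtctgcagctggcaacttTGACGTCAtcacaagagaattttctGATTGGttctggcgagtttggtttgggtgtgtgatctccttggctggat
H2-Eb1: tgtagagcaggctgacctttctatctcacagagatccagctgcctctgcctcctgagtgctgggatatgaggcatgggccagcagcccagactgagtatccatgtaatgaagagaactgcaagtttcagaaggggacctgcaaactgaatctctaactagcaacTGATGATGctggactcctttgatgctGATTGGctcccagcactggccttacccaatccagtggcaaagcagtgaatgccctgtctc
H2-DMb1: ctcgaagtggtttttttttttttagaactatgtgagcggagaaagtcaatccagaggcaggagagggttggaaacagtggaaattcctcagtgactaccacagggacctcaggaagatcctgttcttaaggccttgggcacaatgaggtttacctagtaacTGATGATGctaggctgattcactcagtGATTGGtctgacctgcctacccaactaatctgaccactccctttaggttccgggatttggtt
Ctss: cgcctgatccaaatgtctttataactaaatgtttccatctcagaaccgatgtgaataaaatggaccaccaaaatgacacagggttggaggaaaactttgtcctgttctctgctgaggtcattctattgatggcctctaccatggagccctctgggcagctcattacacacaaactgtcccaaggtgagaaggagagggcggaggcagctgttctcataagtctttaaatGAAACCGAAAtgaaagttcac

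These 3 class II genes shared one layout. An X2 form lay before a Y box with a gap of 17 bases in H2-Aa, 18 in H2-Eb1 and 19 in H2-DMb1, and the Y box began 49, 60 and 62 bases before the start. Searched on both strands over the same 250 bases, GATTGG was present in 14.6% of the 32851 promoter windows in the table, TGACGTCA in 1.55% and TGATGATG in 1.24%. An X2 form followed by GATTGG within 30 bases was searched on the gene's own strand only, and occurred in 19 windows, or 0.0578%. H2-Eb1 had a second GATTGG on the opposite strand, beginning 35 bases before the start. Ctss had no such pair but 1 interferon element that ended 12 bases before its start, a pattern found in 2.98% of windows. Neither of the windows of H2-DMa held the pair, nor did those of the related genes H2-Oa, H2-Ob and H2-DMb2. The letters were chosen with these sequences in view, and a match is a description of the sequence.

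Before the members, 4 facts of the series bear on their values. All levels are given as log2 of the processed signal minus the array's own 75th percentile of it, so that 0 is the 75th percentile and a difference of 1 is a doubling; levels of different probes are not comparable with each other. The targeted gene, Myd88, had 1 probe, and the sources used here do not say whether it lies in the deleted part. Its levels were 3.48, 3.49 and 2.96 in C57BL/6 control, 4.17, 4.30 and 3.41 in C57BL/6 apoA-I, 1.87, 2.10 and 1.40 in MyD88-null control, and 2.75, 3.25 and 2.43 in MyD88-null apoA-I. Each null array was lower than the C57BL/6 array of its treatment and number, with an average difference of -1.33 ± 0.23 (SE) (limma adjusted p = 0.0530, and 0.000938 with the replicate number as a block), but the probe stayed well above background in all of them. For 2 arrays, both replicate 2 (C57BL/6 without and MyD88-null with apoA-I), the written description gives the opposite treatment from the title, and the titles were followed. MyD88-null apoA-I replicate 1 was the dimmest array, with a 75th percentile of 199.5 against 325.1 to 1408 on the others and 73.6% of probes well above background against 57.6% to 67.1%. The 4 replicate 3 arrays were scanned on a day of their own, and on them probes lying farther from the end of a gene's transcript were dimmer relative to probes nearer to it (median over 2241 genes -1.36 to -1.53, against -0.96 to -1.25 on the other arrays). In bulk RNA such as this, fewer cells of a type and less RNA per cell cannot be told apart.

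**Figure D1:**
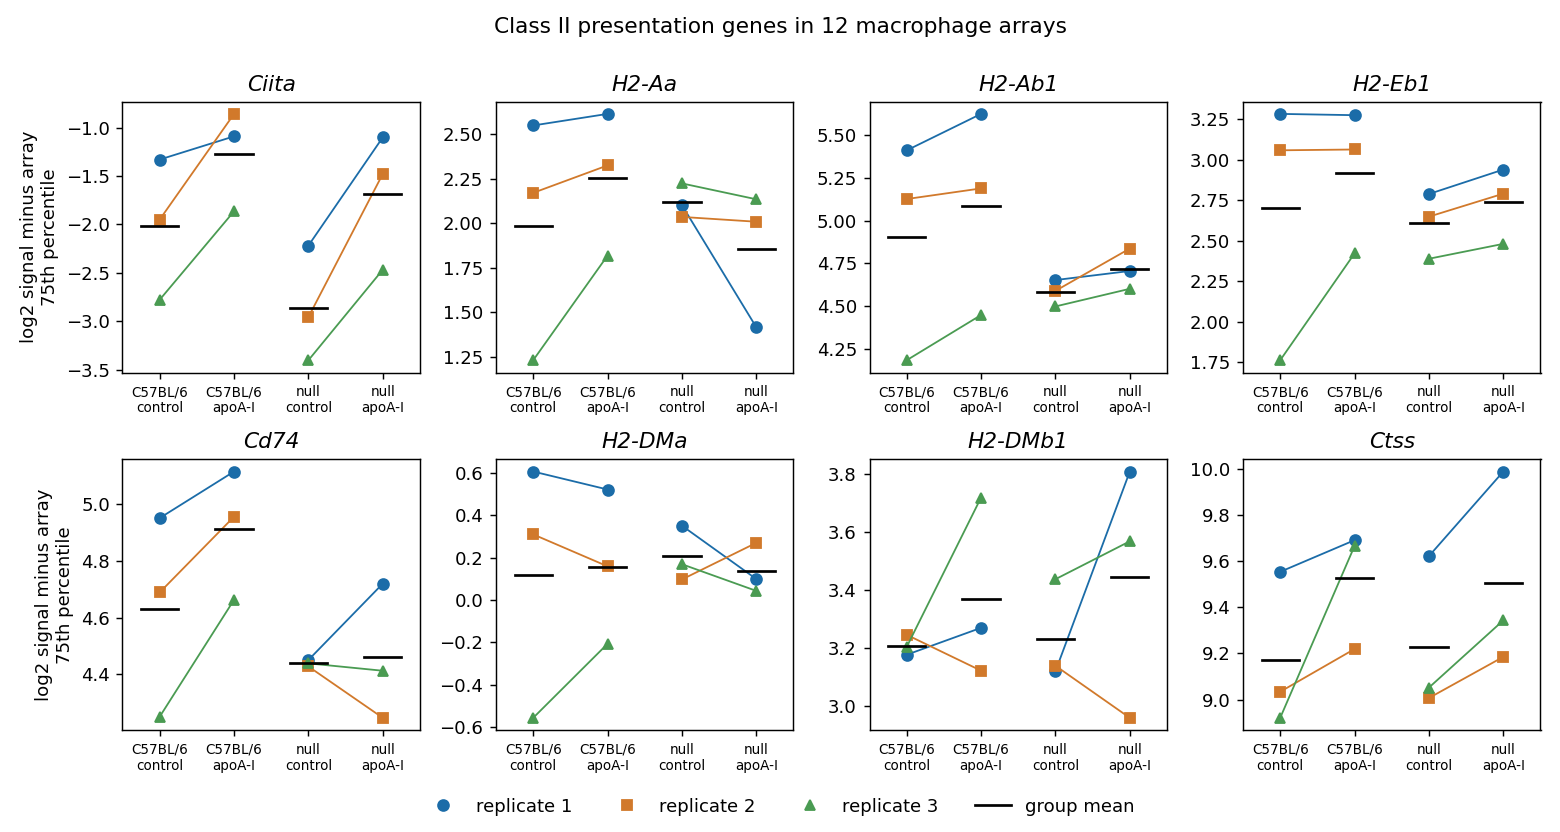
Log2 signal minus the array's 75th percentile (vertical axis) of the 8 members in the 4 groups; symbols and colours mark replicate numbers, thin lines join control and apoA-I of one number within a genotype, and black bars are group means (n = 3). Ciita was higher at the apoA-I end of each of its 6 lines, while in C57BL/6 cells the replicate 3 arrays lay lowest for H2-Aa, H2-Ab1, H2-Eb1, Cd74 and H2-DMa.

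Ciita, the master co-activator, was higher with apoA-I than in the control of the same replicate number in all 6 pairs. Its probe lies at chr16:10203747-10203806 (mm7, plus strand). The level was -1.33, -1.95 and -2.78 in C57BL/6 control and -1.09, -0.86 and -1.86 in C57BL/6 apoA-I. It was -2.22, -2.96 and -3.40 in MyD88-null control and -1.10, -1.48 and -2.47 in MyD88-null apoA-I. The groups overlapped in both genotypes, and replicate 3 was the lowest sample of every group. Within replicate numbers the log2 difference was 0.24, 1.09 and 0.92 in C57BL/6 and 1.12, 1.48 and 0.94 in MyD88-null cells. In the model without pairing the change was 0.75 ± 0.49 (SE) in C57BL/6 (limma adjusted p = 0.995) and 1.18 ± 0.49 in MyD88-null cells (adjusted p = 0.537), or 1.68-fold and 2.26-fold. Averaged over genotypes it was 0.96 ± 0.35 (limma adjusted p = 0.233).

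None of the 8 members passed an adjusted p of 0.05 with apoA-I without pairing, against 0.83% of 16745 genes in C57BL/6, 1.14% in MyD88-null cells and 3.15% averaged over genotypes. At an unadjusted p under 0.05 stood 0 members in C57BL/6 (7.42% of genes), 1 in MyD88-null cells (8.67%) and 1 averaged over genotypes (13.2%), in both cases Ciita. No member had treated and control arrays that did not overlap, which 13.1% of genes had in C57BL/6 and 11.6% in MyD88-null cells. With the replicate number as a block, Ciita passed in MyD88-null cells (SE 0.20, adjusted p = 0.0165) and averaged over genotypes (SE 0.14, adjusted p = 0.00453), and not in C57BL/6 cells alone (adjusted p = 0.0907). The same block called 3.4% of all genes in C57BL/6, 4.07% in MyD88-null cells and 11.5% averaged over genotypes. The response was not shown to differ between genotypes: the difference of the changes was 0.43 with a 95% interval of -1.11 to 1.97 (limma adjusted p = 1.00, and 0.818 with the block). No gene passed for that difference (0%, with or without the block), and 1.17% had an unadjusted p under 0.05, none of them a member. Of all genes, 11.6% were higher in all 6 pairs. Within slides, Ciita's difference was 0.24 and 1.09 on the 2 slides that held both C57BL/6 treatments and 1.86 and 0.94 on the 2 that held both MyD88-null treatments. The 1.86 crosses replicate numbers, since it sets MyD88-null apoA-I replicate 1, the dimmest array, against MyD88-null control replicate 2. The MyD88-null call rested on few arrays: with the block it was lost without MyD88-null control replicate 1 (adjusted p = 0.0527), MyD88-null control replicate 2 (0.0911), MyD88-null apoA-I replicate 1 (0.0595) or MyD88-null apoA-I replicate 2 (0.0918). The call averaged over genotypes stood without any single array (adjusted p from 0.00259 to 0.0221), as did the call in the 7 other scalings, backgrounds, filters and tables run with the block (0.00343 to 0.0323). Without the block, with treatments taken from the descriptions, the averaged change was 0.67 (adjusted p = 0.922).

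The factors that drive or restrain Ciita moved as follows, from a list of 22 genes of class II transcription and interferon-gamma signalling that all passed the filter. Without pairing, 3 rose and 0 fell in C57BL/6 cells, and 3 rose and 0 fell in MyD88-null cells; with the block these were 5 and 0, and 5 and 1, beside 3.4% and 4.07% of all genes called by it. Averaged over genotypes 4 rose (Irf1, Jak2, Socs1 and Prdm1) and 1 fell (Irf8), against 3.15% of all genes. The list's median change was 0.26 and that of all genes 0.05. The list was chosen with earlier results of these data known, so its counts and median are a description only. With the block 7 rose and 2 fell averaged over genotypes (11.5% of all genes were called), the additions being Ifng, Ifngr1 and Il10, which rose, and Rfxap, a subunit of RFX, which fell. Irf1, the transcription factor that works at a Ciita promoter, had levels of 4.77, 4.72 and 4.33 in C57BL/6 control and 7.03, 7.07 and 6.35 with apoA-I. In MyD88-null cells its levels were 3.84, 3.74 and 3.72 in control and 7.66, 7.57 and 6.79 with apoA-I. Irf1 thus rose 4.64-fold in C57BL/6 (log2 change 2.21 ± 0.28 SE, limma adjusted p = 0.00410) and 11.9-fold in MyD88-null cells (3.58 ± 0.28, adjusted p = 0.000180), with no overlap between treated and control arrays. Jak2, a kinase of the interferon-gamma receptor, rose 3.82-fold in C57BL/6 cells (adjusted p = 0.0324); its 2.70-fold difference in MyD88-null cells passed with the block alone (adjusted p = 0.110, and 0.00815 with it).

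Socs1, which blocks Jak kinases, rose 3.44-fold in C57BL/6 (limma adjusted p = 0.0169) and 2.89-fold in MyD88-null cells (adjusted p = 0.0303). Prdm1, which encodes the repressor Blimp-1 known to silence Ciita in plasma cells, rose 4.72-fold in MyD88-null cells (adjusted p = 0.0232); its difference in C57BL/6 cells, 1.81 on the log2 scale, passed with the block alone (adjusted p = 0.0921, and 0.0288 with it). Irf8 fell by 1.01 on the log2 scale averaged over genotypes (adjusted p = 0.0379), and was lower in all 6 pairs. Rfx5, the subunit of RFX that binds the X box, gave differences of 0.30 ± 0.36 in C57BL/6 and 0.82 ± 0.36 in MyD88-null cells and did not pass. Ifng itself, the cytokine gene, was near the detection limit, with 9 of 12 arrays well above background. The other 3 were control arrays, 1 of C57BL/6 and 2 of MyD88-null cells, so the size of its change is not given. Its averaged change was positive (limma adjusted p = 0.0951, and 0.0438 with the block), and the call rests in part on those dim control values. Markers of T cells, a known source of Ifng, were measured for 6 of 6 genes at low summed signal relative to the 75th percentile, 0.774 to 1.65 and 0.91 to 2.03 in C57BL/6 without and with apoA-I and 0.686 to 1.71 and 1.1 to 2.96 in MyD88-null cells. With the block Cd3e (0.67 ± 0.16) and Lck (0.52 ± 0.11) rose averaged over genotypes (adjusted p = 0.0343 and 0.0173), and the part of T cells in the Ifng and Ciita differences was not tested.

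**Figure D2:**
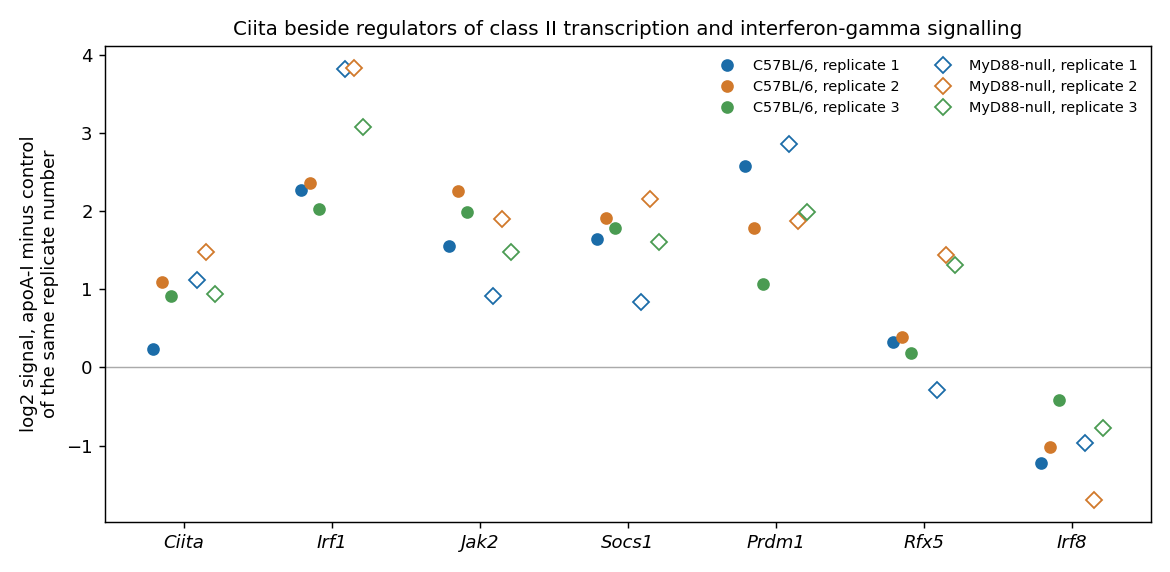
Log2 difference between apoA-I and control of the same replicate number (vertical axis) for Ciita and 6 regulators; filled circles are C57BL/6 and open diamonds MyD88-null, coloured by replicate number. All 6 Ciita points lie above 0, between 0.24 and 1.48, below those of Irf1, which lie between 2.02 and 3.83; Irf8 lies below 0 in all 6.

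The class II chains themselves (the boxes of H2-Aa and H2-Eb1 are printed above) did not pass in any comparison, with or without the block. H2-Aa, the alpha chain of I-A, stood at 2.55, 2.17 and 1.23 in C57BL/6 control and 2.61, 2.33 and 1.82 with apoA-I. Its MyD88-null levels were 2.10, 2.04 and 2.22 in control and 1.42, 2.01 and 2.14 with apoA-I. The lowest level of each genotype came from 1 array, the third control in C57BL/6 and the first apoA-I array in MyD88-null cells, and the groups overlapped. The difference was 0.27 ± 0.35 (SE) in C57BL/6 and -0.27 ± 0.35 in MyD88-null cells. Without MyD88-null apoA-I replicate 1 the latter was -0.05 ± 0.38, and without C57BL/6 control replicate 3 the former was -0.11 ± 0.30. Each of these fits without pairing keeps the partner of the array left out.

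H2-Ab1, the beta chain of I-A, was measured by its brightest probe at chr17:32346939-32346998 (mm7, plus strand). It stood at 5.41, 5.13 and 4.19 in C57BL/6 control and 5.62, 5.19 and 4.45 with apoA-I. In MyD88-null cells the levels were 4.65, 4.59 and 4.50 in control and 4.71, 4.84 and 4.60 with apoA-I, spanning 0.34. On this brightest probe each of the 6 pairs was higher with apoA-I, but by 0.05 to 0.26 only, and the fitted differences were 0.18 ± 0.35 and 0.13 ± 0.35. The other 3 probes gave 0.03 to 0.17 in C57BL/6 and -0.10, -0.28 and -0.29 in MyD88-null cells, so the sign in MyD88-null cells depended on the probe. H2-Eb1, the beta chain of I-E, stood at 3.28, 3.06 and 1.76 in C57BL/6 control and 3.28, 3.06 and 2.42 with apoA-I. Within numbers the difference was -0.01, 0.01 and 0.66, so it came from replicate 3. In MyD88-null cells H2-Eb1 stood at 2.79, 2.65 and 2.39 in control and 2.94, 2.79 and 2.48 with apoA-I. Its fitted differences were 0.22 ± 0.39 and 0.13 ± 0.39. The partner of H2-Eb1, H2-Ea, which mice of the H-2b type do not express, was not well above background on all arrays of any group and was not tested.

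Cd74, the invariant chain, stood at 4.95, 4.69 and 4.25 in C57BL/6 control and 5.11, 4.96 and 4.66 with apoA-I. Its MyD88-null levels were 4.45, 4.43 and 4.44 in control (SD 0.01) and 4.72, 4.25 and 4.41 with apoA-I. The C57BL/6 pairs were each higher by 0.16 to 0.41, and the MyD88-null pairs differed in sign. The fitted differences were 0.28 ± 0.23 (SE) and 0.02 ± 0.23. H2-DMa, the alpha chain of the peptide editor, stood at 0.61, 0.31 and -0.56 in C57BL/6 control and 0.52, 0.16 and -0.21 with apoA-I. In MyD88-null cells its 6 levels lay between 0.04 and 0.35. The fitted differences were 0.04 ± 0.30 and -0.07 ± 0.30.

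H2-DMb1, the beta chain of the editor, stood at 3.18, 3.25 and 3.20 in C57BL/6 control and 3.27, 3.12 and 3.72 with apoA-I. It stood at 3.12, 3.14 and 3.44 in MyD88-null control and 3.81, 2.96 and 3.57 with apoA-I. Unlike the chains, it was not low on C57BL/6 control replicate 3, and the 3 highest levels were those of MyD88-null apoA-I replicate 1, C57BL/6 apoA-I replicate 3 and MyD88-null apoA-I replicate 3. The fitted differences were 0.16 ± 0.25 and 0.21 ± 0.25. H2-DMb2 is a near-identical neighbour, so the probe may read both genes.

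Ctss, the protease that trims the invariant chain, stood at 9.55, 9.03 and 8.92 in C57BL/6 control and 9.69, 9.22 and 9.66 with apoA-I. Its MyD88-null levels were 9.62, 9.01 and 9.05 in control and 9.99, 9.19 and 9.34 with apoA-I. Pairs 1 and 2 were higher with apoA-I by 0.14 and 0.18 in C57BL/6 and by 0.37 and 0.18 in MyD88-null cells. The spot was saturated on 2 arrays, C57BL/6 control replicate 3 and MyD88-null control replicate 3, so those 2 control levels are lower bounds, and neither the sign nor the size of the replicate 3 differences (0.74 and 0.29 as measured) is known. The fitted differences were 0.36 ± 0.29 and 0.28 ± 0.29, with block-adjusted p = 0.331 and 0.320. As measured, Ciita, the brightest H2-Ab1 probe and Ctss were higher in all 6 pairs, as were 11.6% of genes. Ciita alone was with each array centred on its median (4.63% of genes) or quantile-normalized (8.15% of genes). With quantile normalization the third C57BL/6 pair of Ctss was -0.23.

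**Figure D3:**
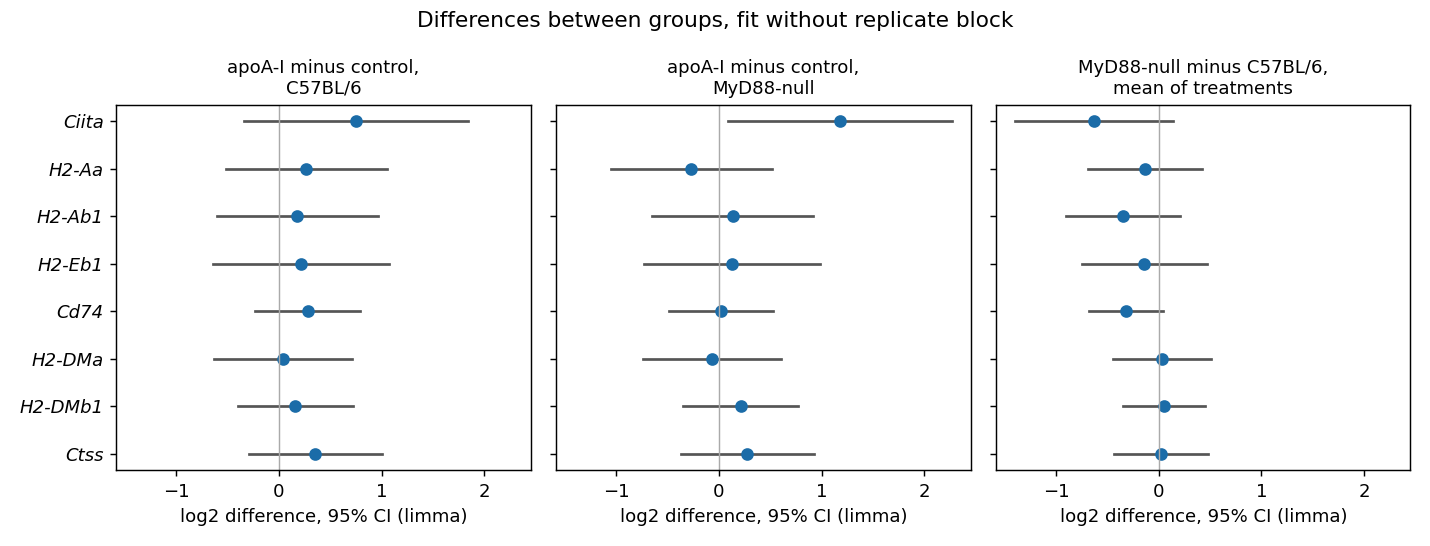
Log2 difference (horizontal axis) of each member with its 95% confidence interval from limma, for apoA-I in C57BL/6, apoA-I in MyD88-null cells, and MyD88-null minus C57BL/6 averaged over treatments. The Ciita interval in MyD88-null cells, 0.09 to 2.27, was the one that left out 0 before adjustment over all genes.

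Across the 7 members other than Ciita, the differences with apoA-I ranged from 0.04 to 0.36 in C57BL/6 and from -0.27 to 0.28 in MyD88-null cells. Their 95% intervals reached from 0.64-fold to 2.11-fold in C57BL/6 and from 0.48-fold to 1.98-fold in MyD88-null cells, so differences within those bounds could not be told from 0 with 3 arrays a group. The median over all 8 members was 0.24 in C57BL/6 and 0.13 in MyD88-null cells, beside -0.00 and 0.05 over all genes tested. The size in MyD88-null cells depended on the scaling: centring each array on its median moved the median change of all genes there from 0.05 to -0.40. It also moved Ciita's difference in the MyD88-null pair of replicate 1, which holds the dimmest array, from 1.12 to 0.42. Taken relative to the median of all genes, where a shift of a whole array cancels, Ciita's change was 1.13 in MyD88-null and 0.75 in C57BL/6 cells, and 1.00 and 0.79 with quantile normalization. On that relative scale H2-Aa in MyD88-null cells stood at -0.32 and, with quantile normalization, at -0.19, and Ctss at 0.23 and -0.01. Leaving out C57BL/6 control replicate 3 gave negative changes for 4 of the 8 members in C57BL/6 cells, where all 8 had been positive with it (49.7% of all genes were). Used as a block, the replicate number takes out only the part of the replicate 3 level that all 4 groups share. With it the negative changes were H2-Aa (-0.10), H2-Ab1 (-0.04), H2-Eb1 (-0.09) and H2-DMa (-0.22), each smaller than its SE or close to it. Ciita's difference was then 0.69. None of these passed (limma adjusted p of 0.248 for Ciita). With or without the block, the fit keeps C57BL/6 apoA-I replicate 3 without its control. A low level of replicate 3 in C57BL/6 cells alone is not taken out by the block. In the C57BL/6 pairs of replicates 1 and 2, H2-Aa differed by 0.07 and 0.15 and H2-Ab1 by 0.21 and 0.06. H2-Eb1 differed by -0.01 and 0.01 there, and H2-DMa by -0.08 and -0.15.

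Between genotypes, none of the 8 members passed in control cells, with apoA-I or averaged over treatments, with or without the block, by limma. The background was 0.0956%, 0.0657% and 0.263% of genes called without the block and 0.591%, 0.227% and 2.13% with it. Without the block no member had an unadjusted p under 0.05, against 3.52%, 3.92% and 6.93% of genes, and none had genotypes that did not overlap, against 10.3% in control and 5.62% with apoA-I. Ciita was lower in MyD88-null than in C57BL/6 cells of the same treatment and replicate number in all 6 pairs, by differences of -0.89, -1.01 and -0.63 in control and -0.01, -0.62 and -0.60 with apoA-I (5.32% of genes were lower in all 6). Averaged over treatments this was -0.63 ± 0.35 (adjusted p = 0.832, and 0.0688 with the block). Without C57BL/6 apoA-I replicate 1 the blocked value was -0.74 (adjusted p = 0.0415). Cd74 was lower in 5 of the 6 pairs, with an average of -0.32 ± 0.16 (adjusted p = 0.801, and 0.213 with the block). For H2-Aa, H2-Ab1 and H2-Eb1 the sign followed the replicate number: MyD88-null minus C57BL/6 control was -0.45, -0.76 and -0.50 in replicate 1 and 0.99, 0.31 and 0.63 in replicate 3. The cause of the low C57BL/6 replicate 3 levels, on arrays whose probe-position difference and scan day also set them apart, was not tested.

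**Figure D4:**
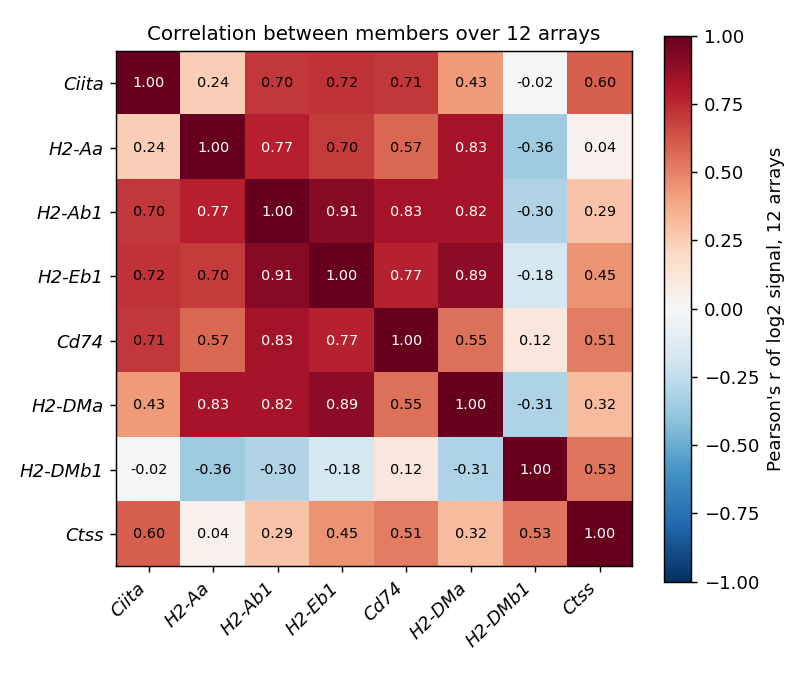
Pearson's r (colour and number, scale -1 to 1) between the log2 signals of each pair of members over the 12 arrays. H2-Aa, H2-Ab1, H2-Eb1, Cd74 and H2-DMa form a block with r of 0.55 to 0.91, and H2-DMb1 has r of -0.36 to 0.12 with them.

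Over the arrays, the members did not move as 1 set. H2-Aa, H2-Ab1, H2-Eb1, Cd74 and H2-DMa varied together, with Pearson's r of 0.55 to 0.91 over 12 arrays in their 10 pairs (Spearman's rho 0.50 to 0.97) and 0.59 to 0.97 after the group means were taken out. Without the 4 replicate 3 arrays the r was 0.46 to 0.94 over 8 arrays. H2-DMb1 gave r of -0.36 to 0.12 with these 5 genes (Spearman's rho -0.37 to 0.20), and over the 8 arrays r of -0.59 to 0.30 but rho of 0.05 to 0.57, so its relation to them was not settled. Ctss gave 0.04 to 0.51 and Ciita 0.24 to 0.72. These are descriptions over arrays that share groups, slides and scan days.

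From the lowest to the highest of 6 arrays, H2-Ab1 spanned 2.71-fold in C57BL/6 and 1.26-fold in MyD88-null cells, H2-Eb1 2.87-fold and 1.47-fold, H2-DMa 2.24-fold and 1.24-fold, H2-Aa 2.61-fold and 1.75-fold, and Cd74 1.82-fold and 1.39-fold. Without C57BL/6 control replicate 3, a view added after the values were seen, the C57BL/6 span of these 5 genes narrowed. C57BL/6 apoA-I replicate 3 was then the lowest C57BL/6 array for each of them. The span was then 2.26-fold for H2-Ab1, 1.82-fold for H2-Eb1, 1.76-fold for H2-DMa, 1.74-fold for H2-Aa and 1.37-fold for Cd74. The last 2 then lay just below their MyD88-null spans. For Ciita and H2-DMb1 the span was wider in MyD88-null cells, at 4.94-fold and 1.80-fold against 3.79-fold and 1.51-fold.

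Among 14144 genes well above background on all arrays, the 8 outside the members that were most like the mean of H2-Aa, H2-Ab1, H2-Eb1 and Cd74 (each scaled to unit spread) were Ms4a4b, Pax5, Rnaset2, Prdx5, Rras, LOC668299, Prkar2b and H2-Q1. Their Pearson's r over 12 arrays ran from 0.92 for Ms4a4b to 0.85 for H2-Q1. H2-DMa, which the mean did not use, had rank 12 (members counted) at r = 0.85. Ciita had r = 0.66 and rank 1049. Pax5, the B-cell identity factor, had r = 0.91. Its levels were -2.58, -2.56 and -4.42 in C57BL/6 control, -2.58, -2.97 and -4.31 in C57BL/6 apoA-I, and -3.33 to -3.84 in the MyD88-null arrays, so it shared the low C57BL/6 replicate 3 samples and the narrow MyD88-null range. Among other B-cell markers r was 0.70 for Cd79a, 0.38 for Cd79b and 0.22 for Ms4a1, and among macrophage markers 0.77 for Csf1r and 0.45 for Adgre1. As linear signal summed over the 7 measured of 8 B-cell markers, relative to the 75th percentile, the groups ranged from 9.83 to 13.5, 10.8 to 12.8, 7.37 to 11.8 and 7.09 to 10.9 in the order control then apoA-I of C57BL/6, then control and apoA-I of MyD88-null cells. The macrophage marker list was measured in full (8 of 8) and summed to between 561 and 1290 on every array. For dendritic cells, which carry much class II, 5 of 7 markers were measured, with sums of 19.5 to 28.1, 24.1 to 31.6, 22.1 to 38.2 and 25.1 to 37.7 in the same order, and Clec9a was well above background on no array. Among them Zbtb46, a factor of conventional dendritic cells, rose with apoA-I with the block alone, by 2.19 ± 0.40 in MyD88-null cells (limma adjusted p = 0.0239, and 0.363 without it) and by 1.60 ± 0.29 averaged over genotypes (0.0105, and 0.191 without it). Irf4, from the list of small peritoneal macrophage markers, rose averaged over genotypes with the block alone, by 0.73 ± 0.20 (limma adjusted p = 0.0497, and 0.393 without it). Ciita was called in the same blocked comparisons, and the part of these cells in its difference was not tested. Between genotypes the B-cell markers Ms4a1 (-0.87 ± 0.13) and Blk (-0.87 ± 0.14) were lower in MyD88-null cells with the block (limma adjusted p = 0.0138 and 0.0257), and neither passed without it (0.0514 and 0.411). Cxcl13, from the list of resident peritoneal macrophage markers, was 5.89-fold lower in MyD88-null cells (adjusted p = 0.0171). The part of B cells, dendritic cells or resident macrophages in the class II levels was not tested.

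H2-Ab1 had 4 probes and H2-Aa 2, which allowed a check within a gene. None of these 6 probes passed in any comparison when each was tested on its own, with or without the block. Both H2-Aa probes were low on MyD88-null apoA-I replicate 1, at 1.46 and 1.42, below the 1.90 to 2.16 and 2.01 to 2.22 of the other 5 MyD88-null arrays. The H2-Ab1 probes disagreed. The brightest one was at 4.71 on that array, within the 4.50 to 4.84 of the other MyD88-null arrays, while A_52_P570717 was at -0.07, below their 0.01 to 1.16. The probe at chr17:32342603-32342662 minus the brightest probe, which lies farther along the gene on the plus strand, came to -3.48 on MyD88-null apoA-I replicate 1 and -3.08 to -3.53 on the replicate 3 arrays, against -2.38 to -2.73 on the other 7. For MyD88-null apoA-I replicate 1 the median over 2241 genes was -0.96, the least negative of the 12 arrays, so that array's wide H2-Ab1 gap was not seen over genes at large. H2-Eb1, Cd74, Ciita, H2-DMb1 and Ctss had their highest MyD88-null level on that same array, at 2.94, 4.72, -1.10, 3.81 and 9.99.

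**Figure D5:**
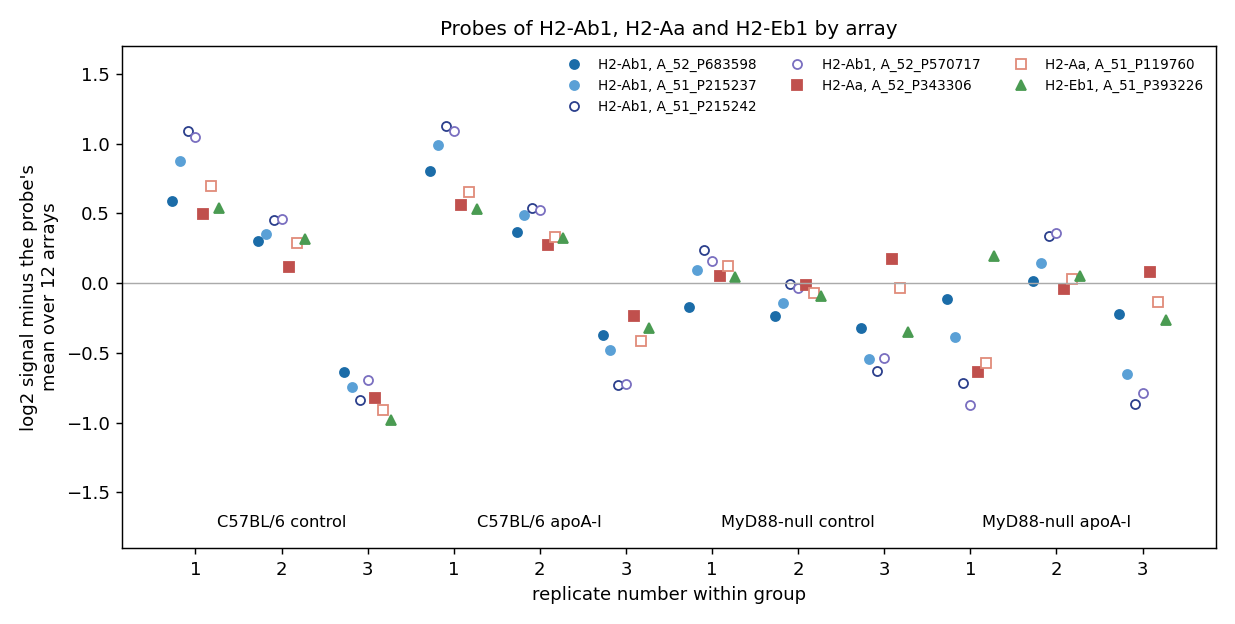
Log2 signal of each probe minus its own mean over 12 arrays (vertical axis), for 4 H2-Ab1 probes (circles), 2 H2-Aa probes (squares) and the H2-Eb1 probe (triangles), by array; replicate numbers on the horizontal axis have no order. All 7 probes lie below 0 on both C57BL/6 replicate 3 arrays, and on MyD88-null apoA-I replicate 1 the H2-Eb1 probe lies above 0 while both H2-Aa probes lie near -0.6.

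The rest of the class II pathway did not pass either. Of a list of 19 genes (further class II chains, the H2-O regulators, lysosomal proteases and a reductase, cystatin C, Mpeg1, MARCH ligases that remove class II from the surface, and tetraspanins), 17 were measured, and 0 rose and 0 fell in any of the 7 comparisons, with or without the block. Their median change with apoA-I was 0.14 in C57BL/6 and 0.13 in MyD88-null cells, beside -0.00 and 0.05 over all genes. Ifi30, the lysosomal thiol reductase, differed by -0.09 ± 0.12 averaged over genotypes, and Ctsl, another protease of the invariant chain, by 0.38 ± 0.20. Marchf1, the ligase that interleukin-10 raises to remove class II, differed by -1.03 ± 0.41 (limma adjusted p = 0.293, and 0.0625 with the block). H2-Oa, which restrains H2-DM, differed by 0.32 ± 0.24. Of 16 genes of class I loading, given as the sister route, 15 were measured and none passed without the block; with it Psmb10 (0.50 ± 0.12, adjusted p = 0.0332) and Psme2 (0.45 ± 0.11, adjusted p = 0.0316) rose averaged over genotypes, 2 of 15 beside 11.5% of all genes.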

How the data were processed

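RNA of 12 macrophage samples was hybridised to 1-colour Agilent arrays and read with Feature Extraction 9.5, per the submitters' processing notes (the file headers give 9.5.1.1 or 9.5.3.1). The deposited intensities (gProcessedSignal, background-subtracted by Feature Extraction per the file headers) were used. No aligner applies, and probe positions are on mm7, per the file headers. A deposited table of log10 values (medians 1.82 to 1.87, scale and centring not stated; r with log10 of the processed intensity 0.993 to 1.00) served as an alternative.

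Outlier-flagged spots were left out, spots of a probe averaged, and log2 values taken relative to each array's 75th percentile. A probe was kept if every array of 1 or more groups had it well above background (24351 probes), and the brightest probe stood for a gene (16745 genes). limma 3.58.1 (R 4.3.3) fitted 4 group means on all 12 arrays, with Benjamini-Hochberg adjustment over all genes and a threshold of 0.05, and was tested on simulated data. Alternatives were other scalings, normexp (offset 50), no filter, every probe, replicate, slide and scan-day blocks, left-out arrays and the conflicting descriptions. Replicate numbers mark shared experiments in the series' design. All 18 same-numbered pairs of arrays deviated together from their group means (r 0.296 to 0.859, median 0.611). The median over the 36 other pairs was -0.399, which is no separate contrast, because taking out group means pushes those values down. The numbers were taken to pair the samples, though slides and scan days partly follow them.

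Named genes were the 8 members, list genes past the threshold or bearing on a member, and the 8 genes most like the class II chains. The members, lists and motifs were chosen with earlier results of these data known. The number of arrays limits the precision.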

Additional observations from a re-analysis of the deposited data

Results flagged for a closer look

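On the probe that stood for the gene, the H2-Aa response to apoA-I was opposite in sign in the 2 genotypes. All 3 C57BL/6 pairs were higher with apoA-I and all 3 MyD88-null pairs were lower. Only the members were searched for such opposite signs, and the share of all genes that show them was not counted. The difference between the changes was -0.54 on the log2 scale (SE 0.50). The test of that difference did not pass (limma adjusted p = 1.00, and 0.860 with the replicate block). In 2 of the MyD88-null pairs the fall was small, by 0.03 and 0.09, against 0.69 in replicate 1, and without MyD88-null apoA-I replicate 1 the difference between the changes was -0.32. Without C57BL/6 control replicate 3 it was -0.16. The second MyD88-null pair was 0.02 both with the percentile taken over detected probes and with quantile normalization. Among the scalings compared pair by pair, the opposite signs thus held in the one used here and with median centring. The other H2-Aa probe did not show opposite signs in all pairs. On it C57BL/6 replicate 1 stood at 2.73 in control and 2.69 with apoA-I. MyD88-null replicate 2 stood at 1.96 in control and 2.07 with apoA-I.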

How the results depend on the processing

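No member other than Ciita passed under any setting run. Without the block, each left-out array in turn gave 0 to 0 members in all 7 comparisons. Ciita made the count 1 in MyD88-null cells with the replicate block or the slide as a random block, and 1 averaged over genotypes with these or with the scan day as a term. The replicate block changed no other call on a member. Of the settings added after seeing the data, the block with another scaling, background, filter, probe rule or the deposited table gave 1 in 6 of 7 settings in MyD88-null cells (median centring gave 0, Ciita 0.73, adjusted p = 0.118) and in 7 of 7 averaged over genotypes. With the block and an array left out, the count was 0 to 1 in MyD88-null cells, 0 to 1 in C57BL/6 cells, 1 to 1 averaged over genotypes, and 0 to 1 between genotypes averaged over treatments. Counts over all genes moved more: in the order C57BL/6, MyD88-null, averaged over genotypes, they were 139, 191 and 527 without the block, 570, 682 and 1932 with it, 755, 659 and 1893 with the slide as a random block, 323, 357 and 1261 with scan day, 80, 83 and 206 with median centring, 83, 136 and 286 without the filter, 53, 106 and 182 without the arrays whose descriptions conflict, and 0, 7 and 0 with treatments from the descriptions. The genotype counts were 16 in control, 11 with apoA-I and 44 averaged over treatments, and 99, 38 and 356 with the block. Of 672 member changes under the planned settings that keep all arrays or drop both conflicting ones, 69 had the other sign, all of them uncalled. The cause of these shifts was not tested. The limits on precision come from 3 arrays a group: without the block the 95% interval of a member's apoA-I effect reached up to 1.09 to each side on the log2 scale, and Ctss was saturated on 2 control arrays.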
